A study of Mus musculus with 17 samples.

Results

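The genes described here are 10 genes of actin filament turnover, comprising the filament-severing genes Dstn, Cfl1 and Cfl2, their cofactors Wdr1 and Cap2, the monomer-binding genes Pfn1 and Tmsb4x, the capping gene Capzb and the cytoplasmic actins Actb and Actg1. They were picked by name, with the strongly higher level of Dstn in KO cells already known from these libraries, so KO against WT values of single members are descriptions given without a p-value, and calls in that contrast are counted once, beside those over all genes, with nothing read from them. All 10 were found among the 55486 Ensembl genes of the count table, and all 10 passed the filter on low counts that left 13229 genes. RNA was sequenced from ventricular cardiomyocytes of 60-day-old mice carrying an MBNL1 loss of function (KO) or serving as controls (WT). The cells were isolated by Langendorff perfusion, plated on laminin and exposed to actinomycin D, a blocker of transcription, at 2 µg/mL. The 6 groups were KO at 0 h, KO at 4 h, KO at 8 h, WT at 0 h, WT at 4 h and WT at 8 h of actinomycin D. WT at 4 h had 2 libraries and every other group had 3, for 17 in all. The question was which transcripts differ in stability when MBNL1 is lost.

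The labels name no allele, promoter or Cre driver, no littermate relation, and no link between libraries and animals. The spread that every p-value rests on is thus that among these libraries and may be technical. Mbnl1 itself averaged 100 ± 5.37 CPM (counts scaled to a common library total) in KO cells at 0 h, against 87.5 ± 1.30 CPM in WT cells (SD, n = 3 each). A count over the whole gene cannot show a deletion within it, so it checks nothing here. Counts assigned to Esr1, the gene of an estrogen receptor, averaged 2451 ± 127 CPM in KO cells at 0 h, against 0.103 ± 0.0574 CPM in WT cells, and every KO library lay far above every WT library at each time. Gene counts per library ran between 17058419 and 17968827, and mitochondrially encoded genes took 35.1 to 43.3% of them. CPM values are scaled with TMM (trimmed mean of M values), so every change is a change relative to the other transcripts of the library. Summed CPM of 12 cardiomyocyte markers lay at 77095 to 80960 in KO cells at 0 h, against 64819 to 67672 in WT cells. In such bulk samples fewer cells of a type and less RNA per cell cannot be told apart.

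Actin filaments grow at one end and are dismantled at the other. Dstn (destrin, also called actin depolymerising factor), Cfl1 (the cofilin of most tissues) and Cfl2 (the muscle cofilin) sever filaments and release monomers, and the Wdr1 and Cap2 proteins speed this up. Profilin (Pfn1) feeds monomers back to growing ends, thymosin beta 4 (Tmsb4x) holds monomers in reserve, and the beta subunit of capping protein (Capzb) closes growing ends, at the Z disc in heart muscle. Cardiomyocytes build their sarcomeres from muscle actins, while Actb and Actg1 form the cytoplasmic cytoskeleton. MBNL1 is a muscleblind RNA-binding protein that binds short pyrimidine-GC-pyrimidine words in RNA and acts on splicing, localisation and turnover.

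A window of 30 bases from the 3′ untranslated region (UTR) is shown for 3 genes, in sense orientation. These 3 were picked because Dstn differed most between genotypes and Tmsb4x fell most during the block. Capzb was added because its density of such words was near that of Tmsb4x. Each window is the first to hold the most such words in its UTR, so its word count is not typical of the UTR. Capitals mark TGCT and CGCT as well as TGCC and CGCC, the DNA letters of the muscleblind words, searched on the sense strand only. The windows come from GENCODE M21 on GRCm38 and start at base 1 of the UTR for Dstn (chromosome 2) and Tmsb4x (chromosome X), and at base 2 for Capzb (chromosome 4).
Dstn: acCGCCagtcagTGCCacgagttgaaagct
Tmsb4x: tgaggcgagCGCCGCCaatatgcactgtac
Capzb: gacctcTGCTtcaCGCTaaccggacaCGCC
Over its whole 3′ UTR of 1088 bases, Dstn held 12 words, or 11.0 per kb. The median over 11631 tested genes with a 3′ UTR of at least 50 bases was 12.6 per kb, and 96.9% of those UTRs held at least 1 word. Tmsb4x held 6 words in 209 bases, or 28.7 per kb, and Capzb 10 in 350 bases, or 28.6 per kb. They stood at percentiles 97.2 and 97.1 of the 11631 genes. Actb held 4 words in 683 bases, or 5.86 per kb, and stood at percentile 8.16. The median UTR length was 1030 bases, so the densities of Tmsb4x and Capzb rest on few words in short UTRs. The AU-rich word ATTTA occurred 12 times in the 3′ UTR of Cfl2 and not at all in those of Dstn and Tmsb4x; 67.7% of the UTRs of tested genes held at least 1. A word match is a description of the letters and not of a bound site.

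Dstn, the actin depolymerising factor, differed most between the genotypes among the 10. It had 226, 228 and 245 CPM in KO cells at 0 h, against 94.2, 84.1 and 90.9 CPM in WT cells. It had 265, 268 and 268 CPM in KO cells at 4 h, against 102 and 104 CPM in WT cells, and 294, 295 and 297 CPM in KO cells at 8 h, against 133, 120 and 129 CPM in WT cells. Every KO library exceeded every WT library at every time, and the lowest KO value lay well above the highest WT value of any time. The log2 fold change of KO over WT was 1.38 ± 0.05 (SE) at 0 h, 1.37 ± 0.05 at 4 h and 1.21 ± 0.04 at 8 h, a fold of 2.59, 2.59 and 2.32. At 0 h it stayed positive under every scaling tried, with 1.40 under RLE scaling (relative log expression), 1.17 when libraries were scaled by size only and 1.04 when scaled by ribosomal protein counts. Dstn is encoded on the plus strand of chromosome 2 (GRCm38, 143915320 to 143943324), and its exons overlap those of no other annotated gene.

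**Figure D1:**
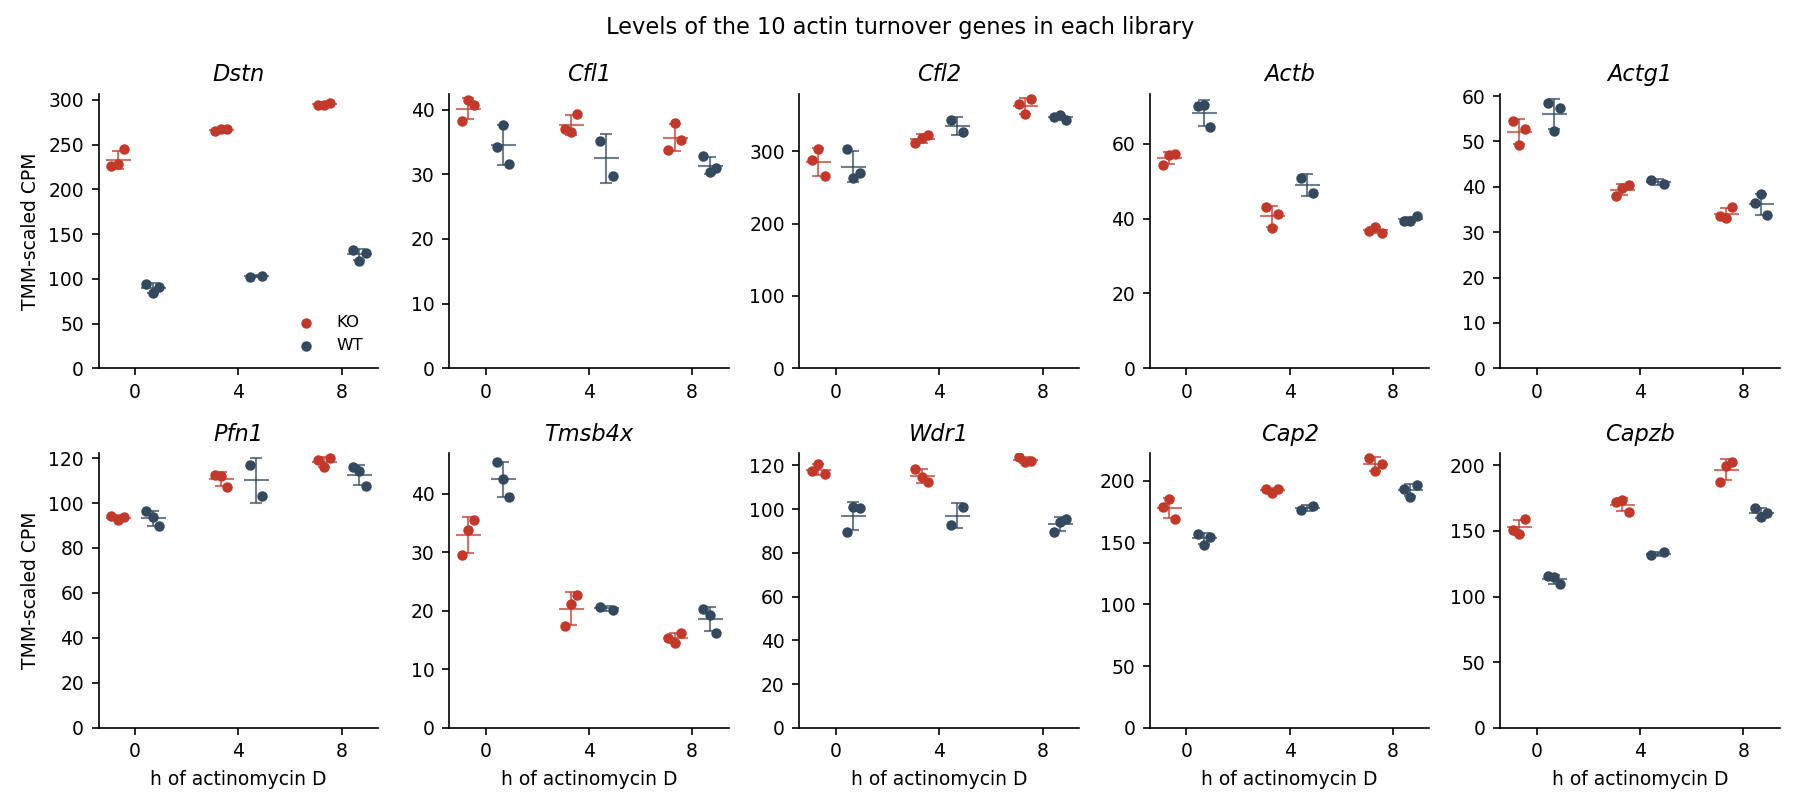
TMM-scaled CPM of each of the 10 genes in every library against hours of actinomycin D, with KO in red and WT in blue; lines and bars give the mean and SD of 3 libraries (2 for WT at 4 h). Dstn lies at 226 to 297 CPM in KO and 84.1 to 133 CPM in WT, while Tmsb4x, Actb and Actg1 are lower at 8 h than at 0 h in both genotypes.

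The cofilins lay closer together in the genotypes. Cfl2, the muscle isoform, had 288, 304 and 266 CPM in KO cells at 0 h, against 304, 263 and 270 CPM in WT cells. Its libraries overlapped between genotypes at 0 h. They did not overlap at 4 h, with KO lower, or at 8 h, with KO higher by a narrow gap. The log2 fold change of KO over WT was 0.03 ± 0.05 (SE) at 0 h, -0.08 ± 0.05 at 4 h and 0.07 ± 0.05 at 8 h. Cfl1, the isoform of non-muscle cells, had 38.3 to 41.5 CPM in KO cells at 0 h, against 31.5 to 37.7 CPM in WT cells, without overlap. The log2 fold change of Cfl1 was 0.22 ± 0.07 at 0 h, 0.21 ± 0.08 at 4 h and 0.19 ± 0.07 at 8 h, and at 0 h it turned to -0.11 with ribosomal protein scaling. Cfl1 shares 468 of its 2844 exon bases with Snx32 on the opposite strand, and whether counting used strand is not given in the sources used here.

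Within the family of severing factors, each library gives a ratio that no scaling between libraries can move. Per kb of exon, Dstn made up 54.5 ± 2.43% of the summed Dstn, Cfl1 and Cfl2 level in KO cells at 0 h, against 32.5 ± 1.02% in WT cells (SD, n = 3 each). At 4 h the Dstn share was 55.8 ± 0.403% in KO cells (n = 3), against 32.1 ± 1.15% in WT cells (n = 2), and at 8 h it was 55.5 ± 0.495% in KO cells, against 36.2 ± 1.22% in WT cells (n = 3 each). Dstn was thus the most abundant of the 3 in every KO library, and Cfl2 in every WT library, with Cfl2 at 39.1% in KO cells and 59.1% in WT cells at 0 h. Cfl1 was the least abundant in every group, with 6.32% in KO cells and 8.41% in WT cells at 0 h. Its share was lower at each later time, with 5.29% at 4 h and 4.51% at 8 h in KO cells, and 6.79% at 4 h and 5.99% at 8 h in WT cells. The shares follow from the levels that led to the choice of Dstn and are given without a test.

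**Figure D2:**
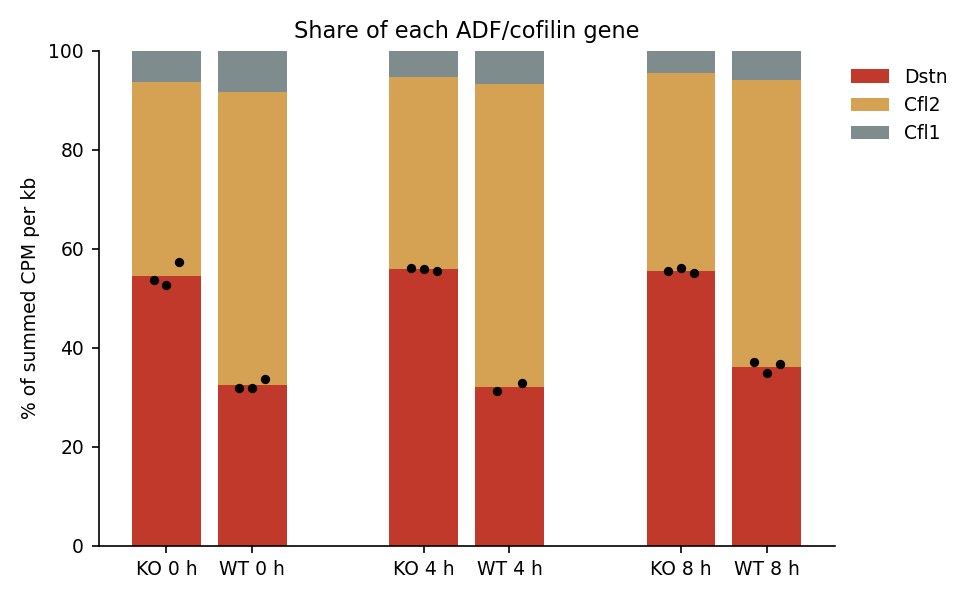
Share of Dstn (red), Cfl2 (ochre) and Cfl1 (grey) in their summed CPM per kb of exon, in percent, as group means; black points give the Dstn share of each library. Dstn takes 54.5 to 55.8% in the 3 KO groups and 32.1 to 36.2% in the 3 WT groups.

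On the same scale of CPM per kb, Dstn ranked first of the 10 genes and Cfl2 second in KO cells at all 3 times, and Cfl2 ranked first and Dstn second in WT cells. Dstn stood at 122 ± 5.47 CPM per kb and Cfl2 at 87.5 ± 5.85 in KO cells at 0 h, against 47.0 ± 2.72 for Dstn and 85.4 ± 6.67 for Cfl2 in WT cells. Capzb, Cap2 and Pfn1 followed in each group, at 38.9 to 46.3 CPM per kb in KO cells and 34.3 to 38.8 CPM per kb in WT cells at 0 h. Libraries of Pfn1 and Cap2 overlapped in every group but KO at 0 h. The actins, Tmsb4x, Cfl1 and Wdr1 filled the lower places, and Cfl1 and Wdr1 overlapped wherever they were neighbours. This order rests on the exon length used, which is longest for Wdr1, at 8.90 kb. In CPM Wdr1 averaged 118 in KO cells and 97.1 in WT cells at 0 h, above Pfn1 with 93.4 and 93.2. Tmsb4x was 6th at 0 h in both genotypes, and at 8 h it was 10th in KO cells and 8th in WT cells.

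The cofactors were somewhat higher in KO cells. Wdr1, which strips cofilin-decorated filaments, had 116 to 121 CPM in KO cells at 0 h, against 89.6 to 101 CPM in WT cells, and 122 to 124 CPM in KO cells at 8 h, against 89.5 to 95.7 CPM in WT cells. The groups did not overlap at any time, and the log2 fold change of KO over WT was 0.28 ± 0.05 (SE) at 0 h, 0.25 ± 0.05 at 4 h and 0.40 ± 0.05 at 8 h. Cap2, a cyclase-associated protein that recycles actin monomers in striated muscle, had 169 to 185 CPM in KO cells at 0 h, against 148 to 157 CPM in WT cells, without overlap. Its log2 fold change was 0.21 ± 0.04 at 0 h, 0.11 ± 0.05 at 4 h and 0.15 ± 0.04 at 8 h. At 0 h both turned slightly negative with ribosomal protein scaling, to -0.05 for Wdr1 and -0.12 for Cap2. Cap2 made up 94.5 ± 0.167% of the Cap1 and Cap2 level per kb in KO cells at 0 h, against 92.2 ± 0.879% in WT cells, so Cap1, the form of non-muscle cells, was minor in both genotypes.

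Capzb had 151, 148 and 159 CPM in KO cells at 0 h, against 115, 115 and 109 CPM in WT cells, and 187, 199 and 203 CPM in KO cells at 8 h, against 168, 160 and 163 CPM in WT cells. The groups did not overlap at any time. The log2 fold change of KO over WT was 0.43 ± 0.04 (SE) at 0 h, 0.36 ± 0.05 at 4 h and 0.26 ± 0.04 at 8 h, and 0.10 at 0 h with ribosomal protein scaling. Of the monomer-binding genes, Pfn1 had 92.3 to 94.3 CPM in KO cells at 0 h, against 89.7 to 96.3 CPM in WT cells, with overlapping libraries and a log2 fold change of 0.00 ± 0.05. At 8 h the Pfn1 libraries did not overlap, with KO higher by a narrow gap. Tmsb4x had 29.5, 33.8 and 35.5 CPM in KO cells at 0 h, against 45.4, 42.6 and 39.5 CPM in WT cells, a log2 fold change of -0.37 ± 0.08 with no overlap. At 4 h Tmsb4x overlapped between the genotypes, with 17.3 to 22.7 CPM in KO cells and 20.1 to 20.7 CPM in WT cells, and at 8 h it had 14.4 to 16.3 CPM in KO cells, against 16.3 to 20.3 CPM in WT cells, with overlapping libraries and a log2 fold change of -0.28 ± 0.09.

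Actb, the gene of beta-actin, had 54.3, 57.0 and 57.4 CPM in KO cells at 0 h, against 70.1, 70.5 and 64.4 CPM in WT cells. All 3 KO libraries were lower, with a log2 fold change of -0.28 ± 0.06 (SE) at 0 h, -0.27 ± 0.07 at 4 h and -0.11 ± 0.06 at 8 h. Actg1, the gene of gamma-actin, had 49.2 to 54.6 CPM in KO cells at 0 h, against 52.4 to 58.4 CPM in WT cells, with overlapping libraries and a log2 fold change of -0.10 ± 0.06. At 4 h the Actg1 libraries did not overlap, with KO lower by a narrow gap. Actb and Actg1 both stayed negative at 0 h under the 4 scalings. A stretch of the Lrrc58 transcripts matches the coding sequence of Actb at 93.2% identity, and reads shared between them could be split by the counting. Lrrc58 averaged 23.4 ± 0.599 CPM in KO cells at 0 h, against 17.7 ± 1.36 CPM in WT cells. The processed copies of Actg1 held 0.798% as many counts as Actg1 itself.

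Cytoplasmic actins were a small part of all actin RNA in these cells, as muscle actins dominate the heart. Per kb, Actb and Actg1 together made up 0.449 ± 0.0202% of the 6 actin genes in KO cells at 0 h, against 0.645 ± 0.0473% in WT cells (SD, n = 3 each). At 4 h that share was 0.321% in KO cells, against 0.383% in WT cells, and at 8 h it was 0.245% in KO cells, against 0.335% in WT cells. Between the cytoplasmic actins, Actg1 held 48.3 ± 1.91% in KO cells at 0 h, against 45.3 ± 2.25% in WT cells, and the ranges of these libraries overlapped.

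Markers of other cell types also differed between the genotypes. Summed CPM of 14 macrophage and leukocyte markers lay at 37.5 to 42.6 in KO cells at 0 h, against 89.97 to 105 in WT cells, and 13 of 14 were called lower. Summed CPM of 12 endothelial markers lay at 200 to 232 in KO cells, against 261 to 275 in WT cells (10 called lower and 1 higher), and that of 11 fibroblast markers at 16.6 to 18.5 in KO cells, against 35.4 to 35.9 in WT cells (9 of 10 tested called lower). The 9 pericyte and smooth muscle markers summed to 439 to 467 CPM in KO cells, against 541 to 567 CPM in WT cells (1 of 7 tested called lower). Of 12 cardiomyocyte markers 8 were called higher and 1 lower. Over all genes 18.8% were called higher and 17.9% lower. Their part in the lower Actb and Tmsb4x and in the higher Dstn, Capzb, Cap2 and Wdr1 was not tested.

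Under edgeR's quasi-likelihood test with Benjamini-Hochberg adjustment over all 13229 genes, 7 of the 10 members were called at 0 h in KO against WT, 5 higher and 2 lower, where 36.6% of all genes were called, 18.8% higher and 17.9% lower. With library size alone the split at 0 h was 2 higher and 5 lower, and with ribosomal protein scaling it was 1 higher (Dstn) and 5 lower. At 4 h 5 were called, 4 higher and 1 lower, beside 32.0% of all genes (14.6% higher, 17.4% lower), and at 8 h 6 were called, 5 higher and 1 lower, beside 27.6% (13.9% higher, 13.7% lower). With library size alone the split was 3 higher and 1 lower at 4 h and 3 higher and 3 lower at 8 h, and with ribosomal protein scaling it was 1 higher and 6 lower at 4 h and 3 higher and 1 lower at 8 h. The member called lower at 8 h was Tmsb4x, whose call ended with DESeq2 and on leaving out replicate 1 or 2 of KO at 8 h or replicate 1 or 2 of WT at 8 h (-0.21 to -0.28). Libraries of the genotypes did not overlap at 0 h for 5 members higher in KO and 2 lower, beside 22.5% of all genes higher and 23.3% lower. At 4 h these were 5 higher and 3 lower, beside 23.4% and 30.0%, and at 8 h 7 higher and 1 lower, beside 18.8% and 20.0%. The median log2 fold change of the members was 0.12 at 0 h, 0.06 at 4 h and 0.11 at 8 h, beside medians over all genes of -0.02, -0.04 and -0.02. Since the members were chosen with this contrast in view, nothing is read from these counts.

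**Figure D3:**
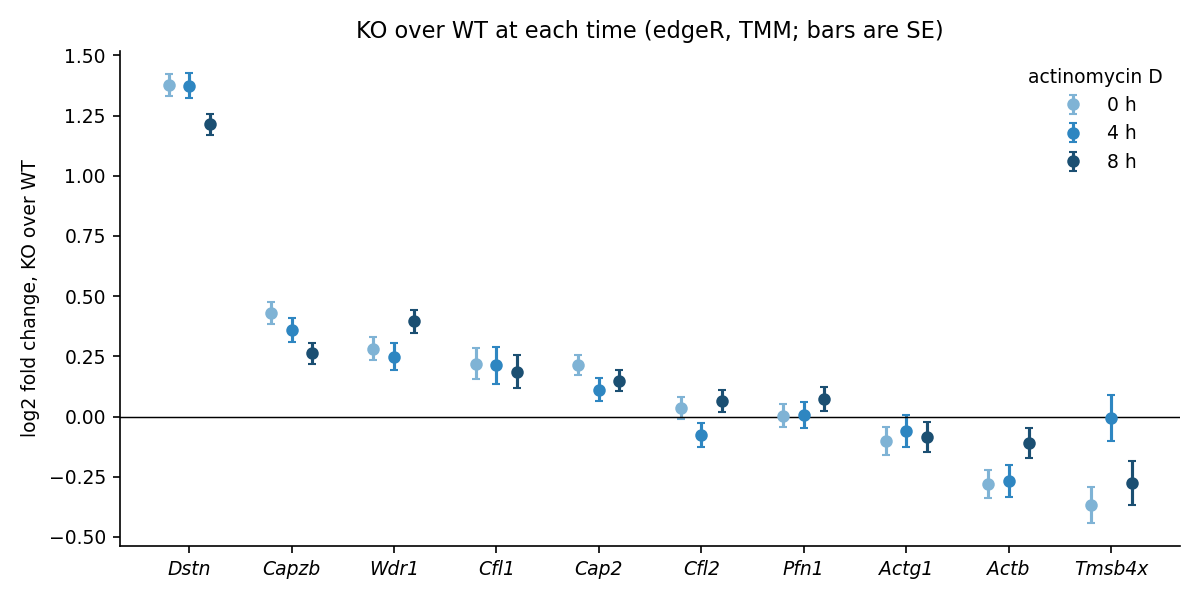
log2 fold change of KO over WT for each gene at 0, 4 and 8 h of actinomycin D, from edgeR with TMM scaling; bars are SE of the fit over 17 libraries. Dstn stands at 1.21 to 1.38, Capzb at 0.26 to 0.43, and Actb at -0.28 to -0.11.

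With TMM scaling some of the 10 genes fell during the block, and others were level or higher in share. Tmsb4x, Actb and Actg1 fell in both genotypes under all 4 scalings. Cfl1 was also lower at 8 h in both genotypes under all 4, by less. Tmsb4x had 32.9 ± 3.10 CPM at 0 h, 20.4 ± 2.76 at 4 h and 15.4 ± 0.933 at 8 h in KO cells (SD, n = 3 each). In WT cells it had 42.5 ± 2.94 CPM at 0 h (n = 3), 20.4 ± 0.432 at 4 h (n = 2) and 18.6 ± 2.08 at 8 h (n = 3). The 8 h libraries lay below all 0 h libraries in both genotypes, with a log2 fold change of -1.10 ± 0.09 (SE) in KO cells and -1.19 ± 0.08 in WT cells. The edgeR adjusted p was 7.1e-15 in KO cells and 2.7e-17 in WT cells. The 8 h level was 0.467 of the 0 h level in KO cells and 0.438 in WT cells.

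Actb had 56.2 ± 1.67 CPM at 0 h, 40.6 ± 2.80 at 4 h and 36.9 ± 0.794 at 8 h in KO cells (SD, n = 3 each). In WT cells it had 68.3 ± 3.39 CPM at 0 h (n = 3), 48.9 ± 2.96 at 4 h (n = 2) and 39.8 ± 0.698 at 8 h (n = 3). Each later group lay below the 0 h group of its genotype without overlap. The log2 fold change at 8 h was -0.61 ± 0.06 (SE) in KO cells and -0.78 ± 0.06 in WT cells, with edgeR adjusted p of 2.7e-13 in KO cells and 2.9e-18 in WT cells. Actg1 followed closely, with log2 fold changes at 8 h of -0.61 ± 0.06 in KO cells and -0.63 ± 0.06 in WT cells and edgeR adjusted p of 6.4e-13 in KO cells and 5.8e-14 in WT cells. Much of the decline of all 3 was present at 4 h, each past the threshold. Log2 fold changes at 4 h were -0.69 in KO cells and -1.05 in WT cells for Tmsb4x, -0.47 in KO cells and -0.48 in WT cells for Actb, and -0.41 in KO cells and -0.45 in WT cells for Actg1.

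Among the 9 members with a promoter to search, only that of Actg1, on the minus strand of chromosome 11, held a CArG box. Actb was not among those searched. The CArG box is the word bound by serum response factor, which drives many actin genes. The promoter of Actg1 is shown as the only one with the box, with that of Dstn for comparison. The box was searched as CC, 6 letters of A or T, then GG, which reads the same on both strands, from 250 bases before to 50 bases after the start in RefSeq (GRCm38.p6). No letter was allowed to differ, so near matches, in Dstn or elsewhere, were not counted. The box lies in capitals 90 bases before the start of Actg1. The windows are chr11:120348446-120348745 on the minus strand for Actg1 and chr2:143915081-143915380 on the plus strand for Dstn.
Actg1: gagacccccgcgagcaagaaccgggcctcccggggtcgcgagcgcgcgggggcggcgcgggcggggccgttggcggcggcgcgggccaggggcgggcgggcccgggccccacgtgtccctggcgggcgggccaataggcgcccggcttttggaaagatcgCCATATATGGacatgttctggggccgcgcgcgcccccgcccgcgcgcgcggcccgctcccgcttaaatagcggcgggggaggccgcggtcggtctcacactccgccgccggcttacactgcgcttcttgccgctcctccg
Dstn: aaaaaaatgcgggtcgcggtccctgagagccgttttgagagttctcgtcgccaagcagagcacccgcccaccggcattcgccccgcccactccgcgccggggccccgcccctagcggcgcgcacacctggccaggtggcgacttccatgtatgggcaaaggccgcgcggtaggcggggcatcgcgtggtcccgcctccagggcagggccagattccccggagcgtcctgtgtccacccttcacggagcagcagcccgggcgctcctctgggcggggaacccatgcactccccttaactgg
Of the members, 9 had a promoter in that table, all but Actb, and 1 held the box. In all, 535 of 32851 promoters (1.63%) did. A match describes the letters and not a bound site, and its part in any change of these genes was not tested.

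Dstn, Cfl2, Pfn1, Cap2 and Capzb gained share during the block with TMM scaling, a direction that turned in both genotypes at 8 h with ribosomal protein scaling. Dstn averaged 233 ± 10.4 CPM at 0 h, 267 ± 1.42 at 4 h and 295 ± 1.37 at 8 h in KO cells (SD, n = 3 each). In WT cells it averaged 89.8 ± 5.19 CPM at 0 h (n = 3), 103 ± 0.757 at 4 h (n = 2) and 127 ± 6.27 at 8 h (n = 3). With TMM scaling the 8 h log2 fold change of Dstn was 0.34 ± 0.04 (SE) in KO cells and 0.50 ± 0.05 in WT cells, with edgeR adjusted p of 1.5e-09 in KO cells and 1.1e-14 in WT cells. With ribosomal protein scaling it was -0.05 in KO cells and -0.16 in WT cells, and in WT cells all 5 genes were then called lower. Capzb gave 0.36 ± 0.04 in KO cells and 0.53 ± 0.04 in WT cells at 8 h with TMM scaling (edgeR adjusted p 3.5e-10 in KO cells and 4.9e-16 in WT cells). With ribosomal protein scaling it gave -0.02 in KO cells and -0.14 in WT cells. Cfl2, Pfn1 and Cap2 gave 0.26 to 0.35 in KO cells and 0.27 to 0.33 in WT cells with TMM scaling, each past the threshold.

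**Figure D4:**
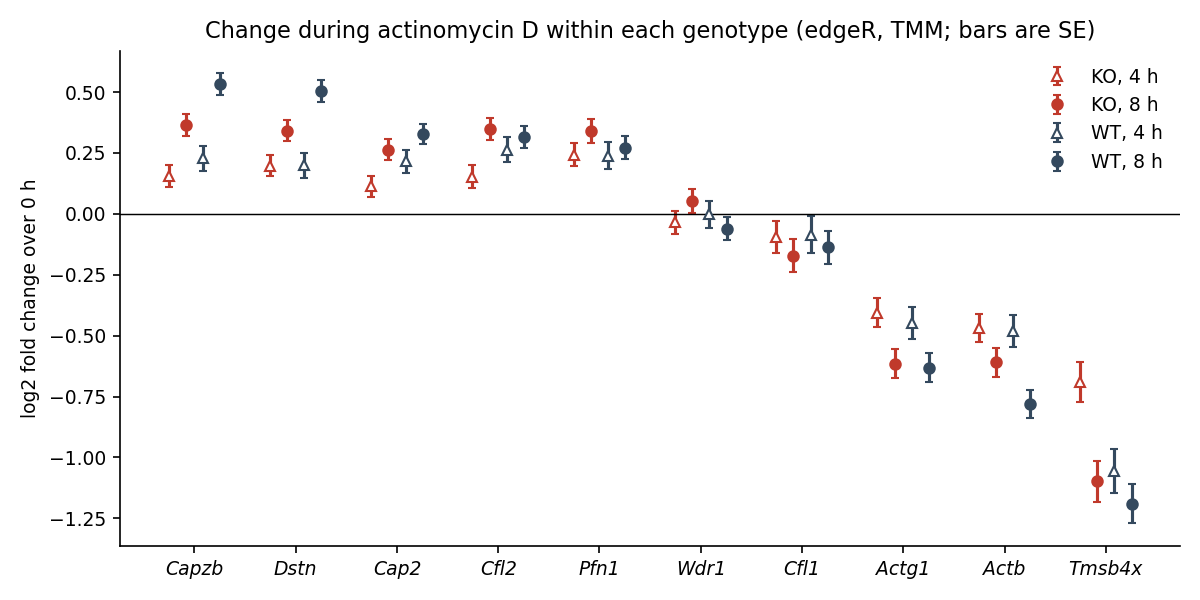
log2 fold change of each gene at 4 h (open triangles) and 8 h (filled circles) of actinomycin D over 0 h, within KO (red) and WT (blue), from edgeR with TMM scaling; bars are SE. At 8 h Tmsb4x stands at -1.10 in KO and -1.19 in WT, and Capzb at 0.36 in KO and 0.53 in WT, a direction that turns with ribosomal protein scaling.

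With TMM scaling Wdr1 and Cfl1 at 8 h lay nearer to their 0 h level than the other members. Wdr1 averaged 118 ± 2.50 CPM at 0 h, 115 ± 3.04 at 4 h and 123 ± 1.27 at 8 h in KO cells (SD, n = 3 each). In WT cells it averaged 97.1 ± 6.43 CPM at 0 h (n = 3), 97.0 ± 5.68 at 4 h (n = 2) and 93.1 ± 3.24 at 8 h (n = 3). Its 8 h log2 fold change was 0.05 ± 0.05 (SE) in KO cells and -0.06 ± 0.05 in WT cells, with edgeR adjusted p of 0.39 in KO cells and 0.31 in WT cells. With ribosomal protein scaling it was -0.34 in KO cells and -0.73 in WT cells. Cfl1 was lower at 8 h under every scaling, by a log2 fold change of -0.17 ± 0.07 in KO cells (edgeR adjusted p = 0.031) and -0.14 ± 0.07 in WT cells (edgeR adjusted p = 0.082). The KO call for Cfl1 was lost under RLE scaling, with DESeq2, with no filter, and without replicate 2 or 3 of KO at 0 h or replicate 1 or 3 of KO at 8 h, with log2 fold changes from -0.13 to -0.22 over the libraries left out. The WT value was called without replicate 3 of WT at 0 h (-0.19, edgeR adjusted p = 0.028). Cfl1 was called lower in both genotypes with library size alone (-0.28 in KO cells and -0.35 in WT cells) and with ribosomal protein scaling (-0.56 in KO cells and -0.81 in WT cells).

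**Figure D5:**
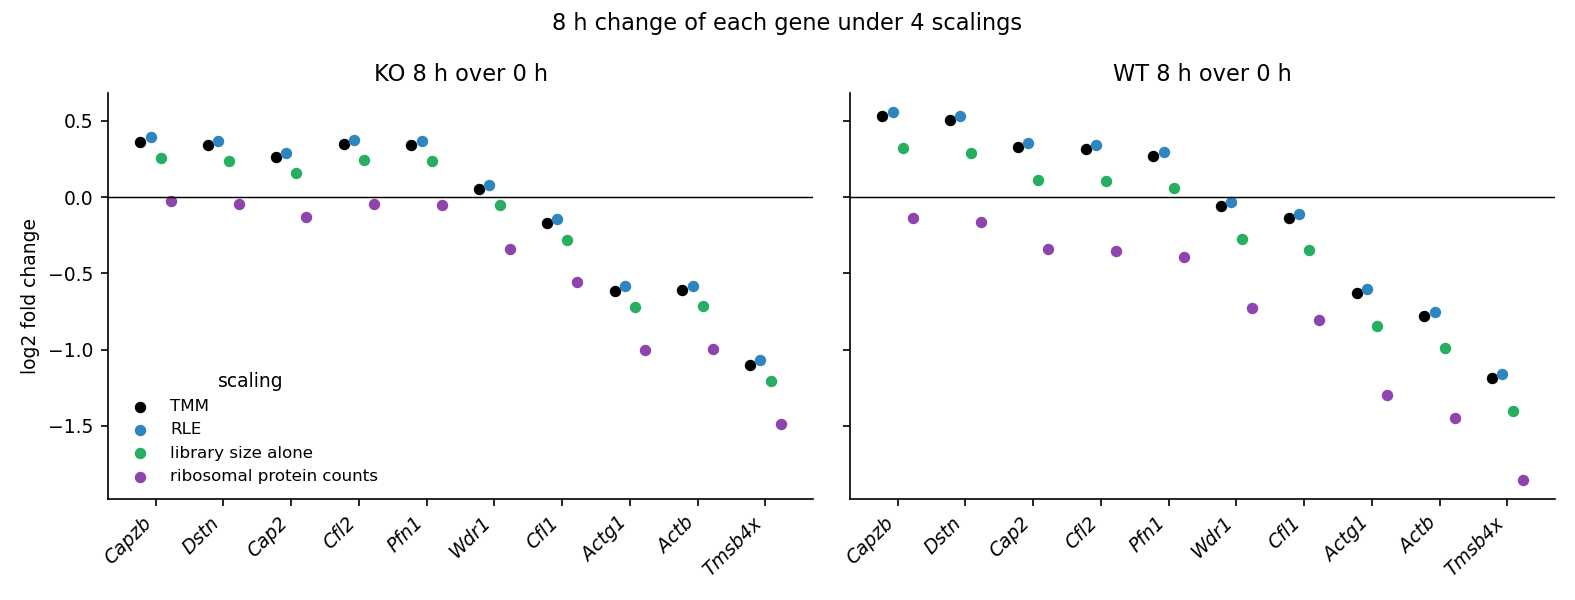
log2 fold change of each gene at 8 h over 0 h in KO (left) and WT (right) under 4 ways of scaling libraries: TMM, RLE, library size alone and ribosomal protein counts. Tmsb4x, Actb, Actg1 and Cfl1 lie below 0 under all 4, while Dstn, Cfl2, Pfn1, Cap2 and Capzb lie above 0 under 3 and below 0 with ribosomal protein scaling.

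In KO cells 8 members were called at 4 h against 0 h, 5 higher and 3 lower, beside 24.9% of all genes (11.4% higher, 13.5% lower), and 9 at 8 h, 5 higher and 4 lower, beside 44.6% (21.4% higher, 23.2% lower). In WT cells 8 were called at 4 h, 5 higher and 3 lower, beside 28.5% of all genes (15.9% higher, 12.6% lower), and 8 at 8 h, 5 higher and 3 lower, beside 51.8% (25.0% higher, 26.8% lower). With ribosomal protein scaling no member was called higher over time, and those called lower were 5 in KO cells at 4 h, 5 in KO cells at 8 h, 4 in WT cells at 4 h and all 10 in WT cells at 8 h. With library size alone the split was 2 higher and 3 lower in KO cells at 4 h, 5 higher and 4 lower in KO cells at 8 h, 0 higher and 5 lower in WT cells at 4 h, and 2 higher and 5 lower in WT cells at 8 h. The median log2 fold change of the members at 8 h was 0.16 in KO cells and 0.11 in WT cells, beside -0.02 in KO cells and -0.03 in WT cells over all genes. Tmsb4x, Actb and Actg1 were lower in both genotypes, with Cfl1 added in KO cells at 8 h. At 4 h several small gains hung on 1 library. The Cap2 gain in KO cells (0.11, edgeR adjusted p = 0.043) was lost on leaving out any of 8 libraries, namely each KO library at 4 h, replicates 1 and 3 of KO at 0 h and each WT library at 0 h, with values from 0.08 to 0.12, and also with a CPM of 1 in 3 libraries as the filter (0.11) and in a fit of the compared groups only (0.10). The Cfl2 gain in KO cells (0.15) was 0.10 without replicate 3 of KO at 0 h, and the Capzb gain (0.16) was 0.13 without replicate 2 of KO at 0 h. In WT cells the Dstn gain (0.20) was 0.14 without replicate 2 of WT at 0 h and 0.17 without replicate 2 of WT at 4 h, and the Pfn1 gain (0.24) was 0.12 without replicate 1 of WT at 4 h. In each case the adjusted p was then above 0.05. With library size alone as the scale, 3 gains in KO cells at 4 h (Cfl2, Cap2 and Capzb) and all 5 in WT cells at 4 h lost their call, and so did Cfl2 (0.11), Cap2 (0.12) and Pfn1 (0.06) in WT cells at 8 h.

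Endothelial, macrophage and fibroblast markers fell during the block as well. Most tested pericyte and smooth muscle markers were also lower at 8 h, although the sum of that list did not fall. All 12 endothelial markers were called lower at 4 and 8 h in both genotypes, and their summed CPM at 8 h was 55.9 to 61.3 in KO cells and 56.8 to 59.9 in WT cells. Macrophage and leukocyte markers were called lower at 8 h for 9 of 14 in KO cells and 14 of 14 in WT cells, with summed CPM of 24.8 to 29.4 in KO cells and 17.2 to 20.1 in WT cells. Fibroblast markers were called lower for 8 of 10 tested in both genotypes at 8 h. The macrophage marker Cx3cr1 and the fibroblast marker Tcf21 had no count in KO cells at 8 h, and no other marker was at 0 in all libraries of a group at that time. Among pericyte and smooth muscle markers 4 of 7 tested were lower and 2 higher in KO cells at 8 h, and 5 lower and 2 higher in WT cells. The median log2 fold change of those tested was -0.96 in KO cells and -0.64 in WT cells. The summed CPM of all 9 listed was 556 to 605 at 8 h in KO cells, against 439 to 467 at 0 h. In WT cells it was 538 to 638 at 8 h, against 541 to 567 at 0 h. Cardiomyocyte markers were called higher at 8 h for 11 of 12 in KO cells and 10 of 12 in WT cells. Over all genes at 8 h, 21.4% were called higher and 23.2% lower in KO cells. In WT cells these shares were 25.0% higher and 26.8% lower. The part of these shifts in the fall of Tmsb4x, Actb and Actg1 was not tested.

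The change over time was compared between genotypes as an interaction, KO minus WT, in the same edgeR fit. It shares libraries with the KO against WT contrast known when Dstn was picked, so its Dstn values are no independent test. The interaction called 0 of 10 members at 4 h, beside 0.348% of all genes (0.242% higher, 0.106% lower), and 0 of 10 at 8 h, beside 5.20% (1.87% higher, 3.33% lower), and DESeq2 also called 0 at both times. At an unadjusted p under 0.05 there was 1 member at 4 h and 3 at 8 h. The largest value at 4 h was that of Tmsb4x, 0.36 ± 0.12 (SE), with an edgeR adjusted p of 0.30. It was called with library size alone as the scale (0.52, edgeR adjusted p = 0.012) and with no filter (0.44, edgeR adjusted p = 0.031). At 8 h Capzb stood at -0.17 ± 0.06, Dstn at -0.16 ± 0.06 and Actb at 0.17 ± 0.08, with edgeR adjusted p of 0.11, 0.13 and 0.25. Leaving out replicate 1 of WT at 0 h brought Dstn to -0.22 (edgeR adjusted p = 0.022) and Capzb to -0.21 (edgeR adjusted p = 0.041), so that 2 members were called. With ribosomal protein scaling 6 were called at 8 h, all with positive values: Actb 0.45, Wdr1 0.39, Tmsb4x 0.37, Pfn1 0.35, Cfl2 0.30 and Actg1 0.29. In that scaling the median of all genes shifted by 0.28, so relative to the other genes these values are smaller.

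The other genes of the pathway were followed through 79 genes in 7 lists, of which 69 were tested, and the lists were drawn up with earlier results of these data known. In KO against WT at 0 h, 18 of these were called higher and 13 lower, with a median log2 fold change of 0.01, beside -0.02 over all genes and 18.8% of all genes called higher and 17.9% lower. The highest were Cobl, which nucleates filaments (0.71 ± 0.11, SE), the skeletal muscle actin Acta1 (0.68 ± 0.04) and the pointed-end cap of sarcomeric filaments Tmod1 (0.37 ± 0.04). Acta1 averaged 423 ± 27.6 CPM in KO cells, against 264 ± 5.96 CPM in WT cells (SD, n = 3 each). The lowest were the severing protein gelsolin, Gsn (-0.87 ± 0.07), the cofilin kinase Limk2 (-0.38 ± 0.08) and the profilin Pfn2 (-0.31 ± 0.06). All 6 kept their direction under the 4 scalings, but with ribosomal protein scaling Tmod1 was at 0.03 and no longer called, Cobl at 0.38 and Acta1 at 0.35. In that scaling the lower genes stood at -1.20 for Gsn, -0.71 for Limk2 and -0.64 for Pfn2. Gsn averaged 21.4 ± 0.713 CPM in KO cells, against 39.2 ± 1.41 CPM in WT cells. Among the 9 tested regulators of cofilin phosphorylation 0 were called higher and 1 lower, Limk2, and of the 9 subunits of the Arp2/3 complex, which starts filament branches, 4 were higher and 1 lower.

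During the block the lists split into higher and lower members. At 8 h in KO cells 19 of the 69 were called higher and 22 lower, beside 21.4% of all genes higher and 23.2% lower, and in WT cells 21 higher and 25 lower, beside 25.0% higher and 26.8% lower. The lowest in both genotypes were the nucleation factor Wasf2 (-0.91 ± 0.10, SE, in KO cells and -1.17 ± 0.11 in WT cells), the non-muscle tropomodulin Tmod3 (-0.86 ± 0.11 in KO cells and -1.01 ± 0.10 in WT cells) and Mrtfb, a coactivator of serum response factor that senses free actin (-0.53 ± 0.09 in KO cells and -0.69 ± 0.09 in WT cells). Their edgeR adjusted p ranged from 4.1e-06 to 5.6e-15. The muscle actins gained share with TMM scaling, 3 of 3 tested in each genotype, and the examples below were near 0 with ribosomal protein scaling. Acta1 was at 0.45 ± 0.04 in KO cells and 0.67 ± 0.04 in WT cells, and with ribosomal protein scaling at 0.06 in KO cells and -0.00 in WT cells. Tmod1 was at 0.39 ± 0.04 in KO cells and 0.57 ± 0.04 in WT cells, and with ribosomal protein scaling at -0.00 in KO cells and -0.10 in WT cells. Cobl completed the highest in KO cells (0.37 ± 0.10, and 0.25 with a call lost without replicate 1 of KO at 8 h), and the Arp2/3 subunit Arpc5l those in WT cells (0.68 ± 0.06). With ribosomal protein scaling Cobl was at -0.02 in KO cells and Arpc5l at 0.009 in WT cells, neither called.

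The genes whose level across the 17 libraries was most like that of Dstn, by Pearson r of log2 CPM among tested genes with a mean log2 CPM of at least 3, were Gpx3 (0.993), Tnnt1 (0.992), Car14 (0.992), Ube2d-ps (0.991) and Ckb (0.989). All 5 were higher in KO cells at 0 h, by a log2 fold change of 0.58 for Car14 up to 2.16 for Tnnt1. For Actb they were Itpkb (0.988), Cxcl12 (0.987), Itga6 (0.979), Ltbp4 (0.975) and Ehd2 (0.971). All 5 were lower in KO cells at 0 h and fell more than Actb in both genotypes, with log2 fold changes at 8 h of -1.35 to -2.15 in KO cells and -1.74 to -2.45 in WT cells. These libraries share genotype, time and scaling, so the r values only describe likeness. The genes were picked by that likeness, so their shared directions follow from the choice and are no separate result.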

How the data were processed

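The authors deposited raw counts per Ensembl gene, and these counts were used as deposited; a second deposited table of ratios was not used. STAR, featureCounts, DESeq2, limma and the builds GRCm38 and mm10 are listed in the submitters' processing notes; use of strand and of reads with several positions is not given in the sources used here. A row naming no gene (0.0113% of counts) was left out. Counts were fitted with edgeR 4.0.16 in R 4.3.3 (filterByExpr, TMM, 1 robust quasi-likelihood fit of 6 groups, biological coefficient of variation 5.29%), with calls at a Benjamini-Hochberg adjusted p of 0.05 over all 13229 tested genes. SE is the log2 fold change divided by the square root of F. Levels per kb use the union of exons in GENCODE M21, which held 99.5% of the gene identifiers; copies were searched with BLAST 2.17.0 (at least 90% identity over 50% of the coding length). Library pairs of 1 group (16) had a log2 r of 0.991 to 0.992 and none was a copy. The fits were tested on simulated data first. Members and gene lists were chosen with earlier results of these data known. From the other lists the 3 highest and 3 lowest called genes with a mean log2 CPM of at least 3 were named in 4 comparisons, and the 5 genes most like Dstn and Actb; the remaining 3 called in the 8 h interaction are given outside that rule. Alternatives were RLE, library size alone, scaling by 86 ribosomal protein genes, no filter, a CPM of 1 in 3 libraries, DESeq2 1.42.0, the compared groups only, a replicate block, and each library left out; for the named list genes they were added after seeing the data.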

Additional observations from a re-analysis of the deposited data

Results flagged for a closer look

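Of the 69 tested pathway genes outside the 10, 6 differed between the genotypes in their change at 8 h by the interaction term of the edgeR fit, 5 with negative values and 1 with a positive value. The Arp2/3 subunit Arpc5l stood at 46.1 CPM at 0 h, 53.8 at 4 h and 53.6 at 8 h in KO cells and at 39.2 CPM at 0 h, 45.5 at 4 h and 62.6 at 8 h in WT cells, an interaction of -0.46 ± 0.08 (SE, edgeR adjusted p = 0.00020). The leiomodin Lmod2, which elongates sarcomeric filaments, stood at 452 CPM at 0 h, 413 at 4 h and 381 at 8 h in KO cells and at 370 CPM at 0 h, 342 at 4 h and 389 at 8 h in WT cells, an interaction of -0.32 ± 0.06 (edgeR adjusted p = 0.00053). Its relative Lmod3 stood at 98.7 CPM at 0 h, 96.0 at 4 h and 95.2 at 8 h in KO cells and at 97.6 CPM at 0 h, 96.0 at 4 h and 114 at 8 h in WT cells, an interaction of -0.27 ± 0.08 (edgeR adjusted p = 0.032). The Lmod2 call was lost with library size alone as the scale (-0.21), and the Lmod3 call with library size alone (-0.16), no filter (-0.21) and DESeq2 (-0.27) and on leaving out any of 7 libraries (-0.21 to -0.28), namely replicates 2 and 3 of KO at 0 h, 1 and 2 of KO at 8 h, 1 of WT at 0 h, and 1 and 3 of WT at 8 h. The other 3 lie outside the naming rule and were chosen because they were called. The formin gene Fhod1, at low counts, stood at 2.85 CPM at 0 h, 2.25 at 4 h and 2.32 at 8 h in KO cells and at 3.89 CPM at 0 h, 2.32 at 4 h and 1.58 at 8 h in WT cells, an interaction of 1.0 ± 0.29 (edgeR adjusted p = 0.029). The capping protein subunit Capza2 had an interaction of -0.25 ± 0.07 (edgeR adjusted p = 0.016) and Acta1 one of -0.21 ± 0.06 (edgeR adjusted p = 0.025). The Fhod1 call was lost on leaving out any of 6 libraries (0.82 to 0.95), namely replicate 2 of KO at 0 h, 2 and 3 of KO at 8 h, 3 of WT at 0 h, and 2 and 3 of WT at 8 h. The Capza2 call was lost with library size alone (-0.14), with no filter (-0.19) and without replicate 2 of KO at 0 h (-0.23). The Acta1 call was lost with library size alone (-0.11), with no filter (-0.16) and without replicate 3 of KO at 0 h, 1 or 2 of KO at 8 h, or 1 of WT at 8 h (-0.16 to -0.21). With ribosomal protein scaling Fhod1 was called at 1.28 and the other 5 were not, with Arpc5l at -0.18, Lmod2 at -0.04, Lmod3 at 0.01, Capza2 at 0.03 and Acta1 at 0.06. In the main scaling 440 of 13229 genes (3.33%) were called lower in this interaction and 248 (1.87%) higher.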

How the results depend on the processing

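The number of members called changed by over 1.5 times in these cases. With library size alone it was 5 in KO cells at 4 h, 5 in WT cells at 4 h and 1 in the 4 h interaction; with ribosomal protein scaling it was 5 in KO cells at 4 h, 5 at 8 h, 4 in WT cells at 4 h and 6 in the 8 h interaction; with no filter it was 1 in the 4 h interaction. Leaving out each library in turn gave 0 to 2 members in the 8 h interaction. The causes were not tested.

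The following log2 values turned in sign. In KO against WT, library size alone gave Cfl2 -0.17 and Pfn1 -0.20 at 0 h, Pfn1 -0.044 at 4 h, and Cfl2 -0.035 and Pfn1 -0.028 at 8 h. Ribosomal protein scaling gave Cfl1 -0.11, Cfl2 -0.29, Pfn1 -0.33, Wdr1 -0.049 and Cap2 -0.12 at 0 h, and Cfl1 -0.15, Pfn1 -0.35, Wdr1 -0.11 and Cap2 -0.25 at 4 h. Pfn1 at 0 h was -0.030 with no filter and -0.0048 with a CPM of 1 in 3 libraries. Tmsb4x at 4 h was 0.024 under RLE, 0.024 with DESeq2, 0.025 in the compared groups only and 0.035 with no filter.

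Over time, ribosomal protein scaling gave Dstn -0.022, Cfl2 -0.071, Cap2 -0.11 and Capzb -0.062 in KO cells at 4 h. At 8 h it gave Dstn -0.046, Cfl2 -0.047, Pfn1 -0.049, Wdr1 -0.34, Cap2 -0.13, Capzb -0.025, Cobl -0.020 and Tmod1 -0.0021 in KO cells, and Dstn -0.16, Cfl2 -0.35, Pfn1 -0.40, Cap2 -0.34, Capzb -0.14, Tmod1 -0.10 and Acta1 -0.00013 in WT cells. Wdr1 in KO cells was 0.0010 at 4 h with no filter and -0.053 at 8 h with library size alone. Wdr1 in WT cells at 4 h was 0.0051 under RLE, 0.0047 with DESeq2 and 0.00033 with the replicate block.

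In the 4 h interaction Dstn was 0.0040 under RLE, 0.0037 with DESeq2, 0.0012 with a CPM of 1 in 3 libraries, 0.063 in the compared groups only, 0.071 with no filter and 0.15 with library size alone. Library size alone also gave Cfl1 0.15, Cfl2 0.041, Wdr1 0.12, Cap2 0.052 and Capzb 0.082; ribosomal protein scaling gave Actb -0.015 and Pfn1 -0.025; no filter gave Cfl1 0.065, Wdr1 0.041 and Capzb 0.0017; the compared groups only gave Cfl1 0.058 and Wdr1 0.032. In the 8 h interaction library size alone gave Cfl1 0.071 and Cap2 0.041, no filter Cfl1 0.023, and ribosomal protein scaling Dstn 0.12, Cfl1 0.25, Cap2 0.21, Capzb 0.11, Lmod3 0.011, Capza2 0.029 and Acta1 0.065.

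Values that turned on leaving out 1 library ranged as follows. In KO against WT they were Cfl2 -0.012 to 0.13 and Pfn1 -0.0015 to 0.054 at 0 h, and Pfn1 -0.048 to 0.13 and Tmsb4x -0.087 to 0.10 at 4 h. In WT cells at 4 h they were Cfl1 -0.23 to 0.0027 and Wdr1 -0.089 to 0.037. In the 4 h interaction they were Dstn -0.031 to 0.049, Cfl1 -0.094 to 0.14, Actb -0.031 to 0.098, Pfn1 -0.057 to 0.12 and Wdr1 -0.069 to 0.057, and in the 8 h interaction Cfl1 -0.13 to 0.0034, Cfl2 -0.061 to 0.077 and Actg1 -0.040 to 0.061.

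Over all genes, ribosomal protein scaling called 8125 in KO against WT at 0 h (474 higher, 7651 lower) and library size alone 6469 (906 higher, 5563 lower), beside 4848 with TMM (2485 higher, 2363 lower). Ribosomal protein scaling called 7796 at 4 h (332 higher, 7464 lower), beside 4227 (1931 higher, 2296 lower), and 11345 in WT cells at 8 h (50 higher, 11295 lower), beside 6859 (3313 higher, 3546 lower). In the 4 h interaction it called 28, library size alone 100 and DESeq2 24, beside 46, and in the 8 h interaction ribosomal protein scaling called 3051 (3007 higher, 44 lower), beside 688 (248 higher, 440 lower). The median over all genes moved by -0.33 in KO against WT at 0 h, -0.36 at 4 h, -0.39 in KO cells at 8 h and -0.67 in WT cells at 8 h with ribosomal protein scaling, by -0.21 in KO against WT at 0 h with library size alone, and by at most 0.03 under RLE.

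Deviations of 40 same-numbered pairs of libraries correlated at -0.19 to 0.18. Pairs with different numbers were not compared, so this range cannot decide whether replicate numbers mark pairing. With the replicate block 8 members were called in KO cells at 4 h, 9 at 8 h, 8 in WT cells at 4 h, 8 at 8 h and 0 in both interactions, and it changed no call of a member. Tmsb4x had the widest SE of the 10 in each comparison and the fewest counts summed over the 17 libraries.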
